A study of Homo sapiens with 7 samples.

Results

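The genes described here form the machinery that makes microRNAs and uses them, together with the cytoplasmic factors that shorten, decap, degrade or protect mRNAs. The members were 49 genes named by symbol, and each was found by an exact match in the deposited table of 58174 genes. They fell into microRNA biogenesis (5 genes), Argonaute and GW182 proteins (7), deadenylation (11), decapping and 5'-3' decay (8), nonsense-mediated decay (6), RNA-binding stability factors and adaptors (8) and RNA-binding partners of IGF2BP1 (4). A mean of at least 1 FPKM over all libraries (fragments scaled by gene length and library size) was required for testing, and 48 members reached it. Total RNA, depleted of ribosomal RNA, had been sequenced from Huh-7, an established human cell line of hepatocellular carcinoma origin. The cells had received a control siRNA (siC, 3 libraries) or a pool of siRNAs against IGF2BP1, also called IMP1 (siImp1, 4 libraries), and were harvested 72 h later. The pool lowers IGF2BP1 and does not remove it, the cells of every library belong to 1 line, and the labels do not say whether replicates were separate cultures, so that the p-values measure only the spread between these libraries. FPKM means are given ± SD, over n = 3 in siC and n = 4 in siImp1, and log2 changes are siImp1 minus siC of FPKM + 0.1.

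In animal cells a primary microRNA is cleaved in the nucleus, exported and trimmed in the cytoplasm, and an Argonaute protein then carries the mature strand to sites in the 3'UTR of target mRNAs. GW182 proteins bound to Argonaute recruit deadenylases that shorten the poly(A) tail, after which the cap is removed and the mRNA is degraded from its 5' end. IGF2BP1, an RNA-binding protein of fetal tissues and tumors, is known to shield bound mRNAs from this route, and the study asked which transcripts depend on it. The comparison below asks whether transcripts of the route itself differed after depletion of IGF2BP1.

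The targeted transcript, IGF2BP1, stood at 81.9, 80.4 and 84.4 FPKM in siC and at 15.6, 15.7, 16.6 and 15.3 FPKM in siImp1, a log2 change of -2.37 (SE 0.0558, limma adjusted p = 1.16e-05). Reads on genes ranged between 12826550 and 33212205 per library, with 13983987 in siC replicate 3. The hepatocytic markers ALB, AFP, APOA1, APOB, TTR and SERPINA1 were present in all 7 libraries, at no less than 14.1 FPKM, the leukocyte marker PTPRC and the fibroblast marker COL1A1 stayed at or below 0.0127 and 0.0740 FPKM, and the endothelial marker PECAM1 lay from 2.58 to 3.29 FPKM. In these bulk samples fewer copies per cell and fewer cells that express a gene cannot be told apart. In a principal component analysis siC replicate 3 stood apart from the other 6 libraries on the first component, which took 34.5% of the variance. Results are therefore given with it and without it.

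On depletion of IGF2BP1, EDC3, an enhancer of decapping, was the member that passed the test, and the other 47 members tested did not. At a limma adjusted p of at most 0.01, 1 of 48 members was lower in siImp1 and 0 were higher (2.08%), beside 2.28% lower, 1.65% higher and 3.93% in either direction among all 14839 genes tested. At an unadjusted p under 0.05, 7 members were lower and 1 was higher (16.7%), beside 14.8% lower, 11% higher and 25.9% in either direction among all genes. On recovered whole reads voom also called EDC3 lower and 0 members higher, where 5.67% of all genes passed, and limma with array weights called 9 members (18.8%), beside 18.5% of all genes. At an adjusted p of at most 0.05, 2 members passed, beside 11.5% of all genes. Without siC replicate 3, EDC3, AGO1 and UPF1 were lower and 0 members were higher (6.25%), beside 6.67% lower, 3.6% higher and 10.3% in either direction among all genes. When an unadjusted p under 0.05 was taken in that fit, 13 members were lower and 7 higher. Among all genes the shares were then 23.1% lower, 15.3% higher and 38.3% in either direction. At an adjusted p of at most 0.01 the share of members called was thus below that of all genes with limma, with voom and without siC replicate 3, and close to it with array weights. The 20 members at an unadjusted p under 0.05 without siC replicate 3 (41.7%) were slightly above the share of all genes. A median log2 change of -0.051 was found over the 48 members, beside -0.017 over all genes tested, and without siC replicate 3 the medians were -0.027 and -0.031. The 95% interval of the log2 change lay between -1 and 1 for 46 of 48 members, and the exceptions were CNOT6 (-1.16 to 1.05) and DCP2 (-1.37 to -0.23).

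**Figure D1:**
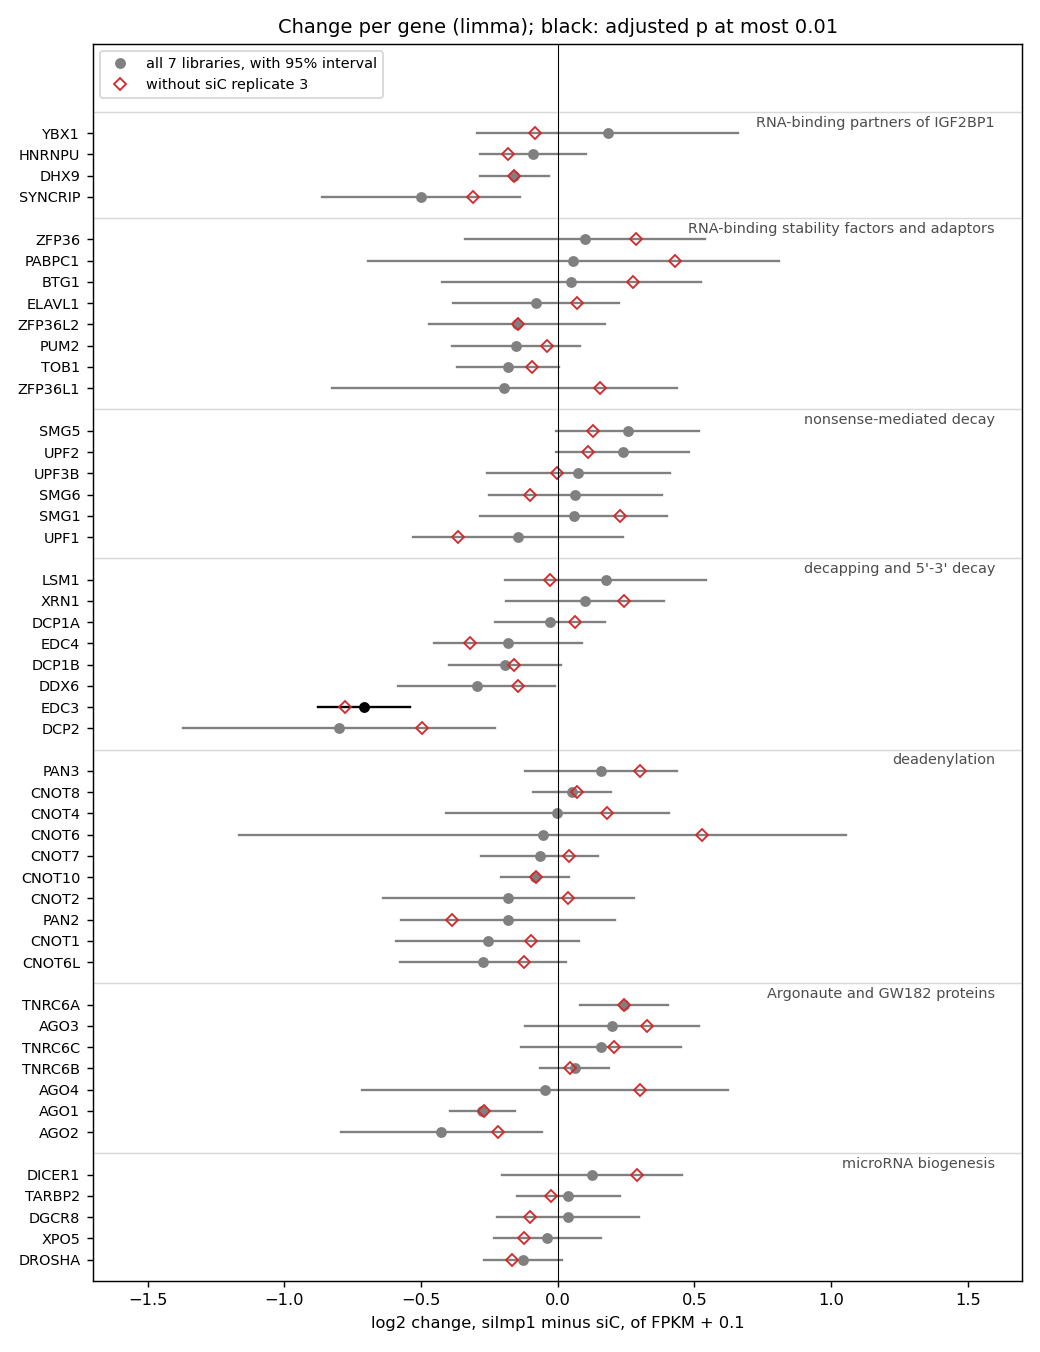
Log2 change, siImp1 minus siC, of FPKM + 0.1 for the 48 members tested, grouped by role, with the 95% interval as a line. Filled points are from all 7 libraries, black where the limma adjusted p is at most 0.01, and open red diamonds are without siC replicate 3. EDC3, at -0.71, is the black point, CNOT6 has the widest interval, and CNOT6 and DCP2 are the members whose intervals leave -1 to 1.

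The values of siC and siImp1 did not overlap for 11 members that were lower in siImp1 (22.9%), beside 15.1% of all genes tested, and for 3 that were higher (6.25%), beside 11.9%. The lower members were DROSHA, AGO1, AGO2, CNOT10, DCP1B, DCP2, EDC3, DDX6, TOB1, SYNCRIP and DHX9. The higher ones were TNRC6A, TNRC6B and UPF2. Of these 14 members, EDC3 passed the threshold. Without siC replicate 3 the groups did not overlap for 18 members that were lower (37.5%), beside 29.3% of all genes tested, and for 13 that were higher (27.1%), beside 20.5%. Both shares of members were above those of all genes, and lower genes outnumbered higher ones among all genes too. DGCR8, XPO5, PAN2, EDC4, UPF1, SMG6 and HNRNPU joined the lower members, and DICER1, AGO3, AGO4, TNRC6C, CNOT6, PAN3, XRN1, SMG1, PABPC1 and BTG1 joined the higher ones.

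The levels of the members differed widely. FPKM values are scaled to the deposited gene length, which for some members is far longer than the canonical transcript. For HNRNPU it is 22512 bases, whereas the canonical transcript holds 137 stretches of 50 bases. Levels can therefore be compared between genes only roughly. They are not compared for CNOT3, whose reads may be undercounted (described with the deadenylation genes). YBX1 had the highest mean in siC, at 486 ± 139 FPKM, followed by DHX9 at 89.9 ± 1.4, SMG5 at 74.8 ± 10.7 and PABPC1 at 72.1 ± 34.9 FPKM. The order of DHX9 and SMG5 held in every siC library, whereas PABPC1 and SMG5 overlapped. Lowest among the members tested were TNRC6C (1.61 ± 0.12 FPKM), AGO4 (2.09 ± 0.988) and ZFP36 (2.17 ± 0.567), whose siC values overlapped. In every library each tested member was covered by at least 51 reads, the count of ZFP36 in its shallowest library, and YBX1 reached 34124 reads.

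**Figure D2:**
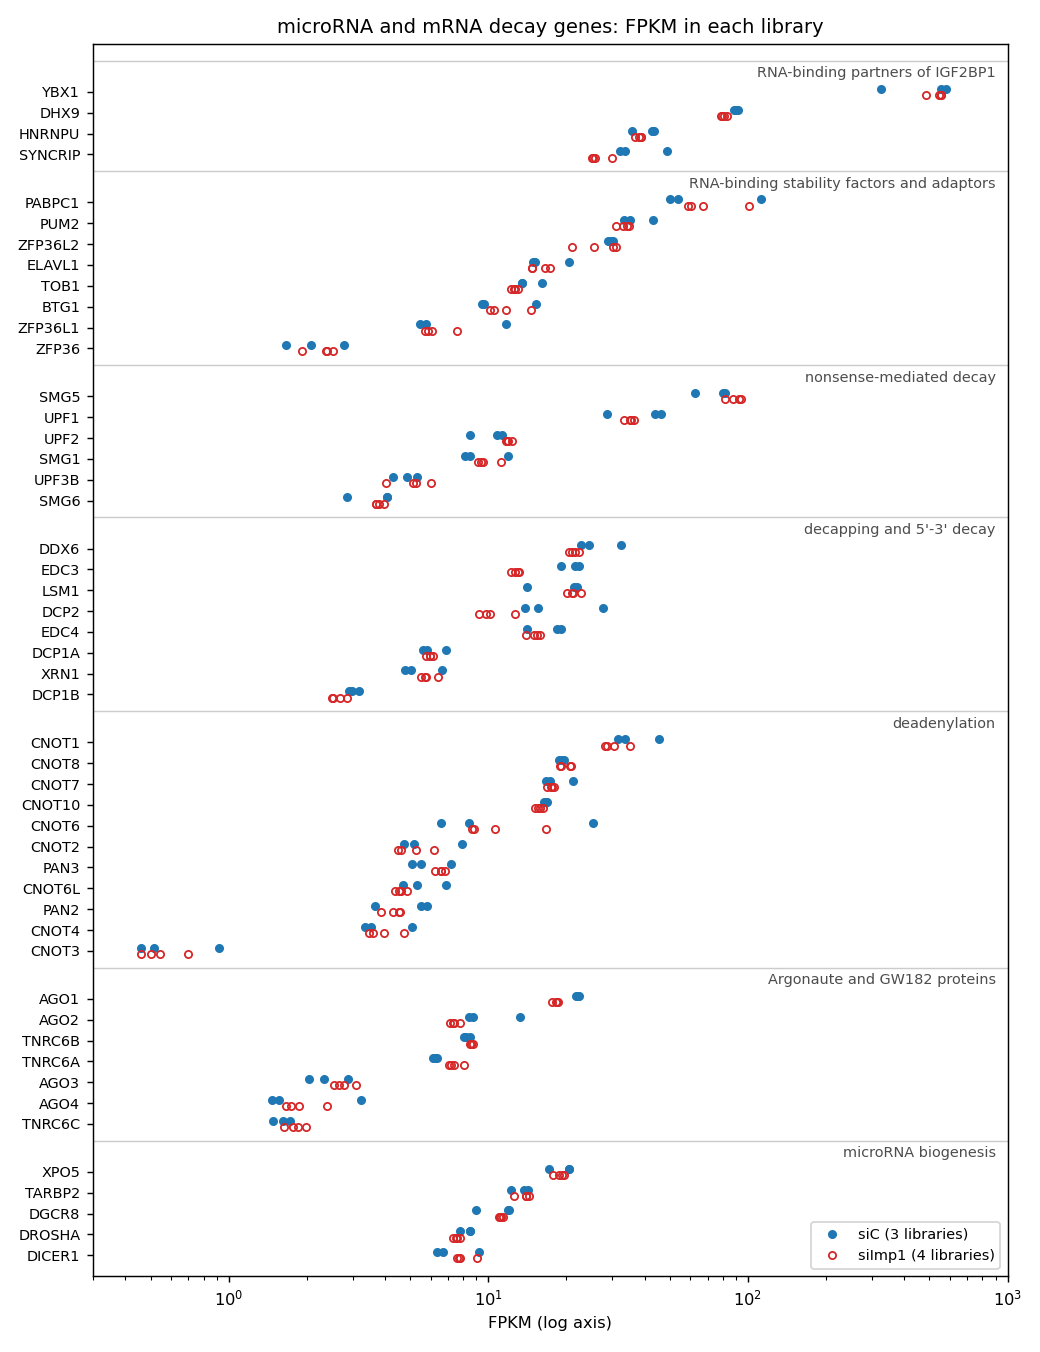
FPKM of the 49 members in each library on a log axis, grouped by role and ordered by the siC mean within a role. Filled blue points are the 3 siC libraries and open red circles the 4 siImp1 libraries. The plotted values run from 0.458 FPKM for CNOT3, whose reads may be undercounted, to 579 FPKM for YBX1, and for most members the groups overlap.

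Library siC replicate 3 moved with many members. It lay above the mean of the other siC libraries for 32 of 48 members (66.7%), beside 47.2% of all genes tested. The distance ran from -0.79 on the log2 scale for YBX1 to 1.75 for CNOT6. Across the 48 members it went down with the GC content of the transcript (Spearman's rho -0.476), as it did across 14711 genes with a GC content (rho -0.427), all points being from the same libraries. All 8 stability factors and adaptors and 9 of 10 deadenylation genes lay above in siC replicate 3, whereas 1 of 5 biogenesis genes and 1 of 6 genes of nonsense-mediated decay did. A like distance of siImp1 replicate 2 from the other siImp1 libraries also went down with GC content, among the members (rho -0.532) and across all genes with a GC content (rho -0.386). The part of base composition in the changes of the members was not tested beyond a fit with each library's GC trend removed, in which EDC3 again passed and no other member did, beside 6.66% of all genes.

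**Figure D3:**
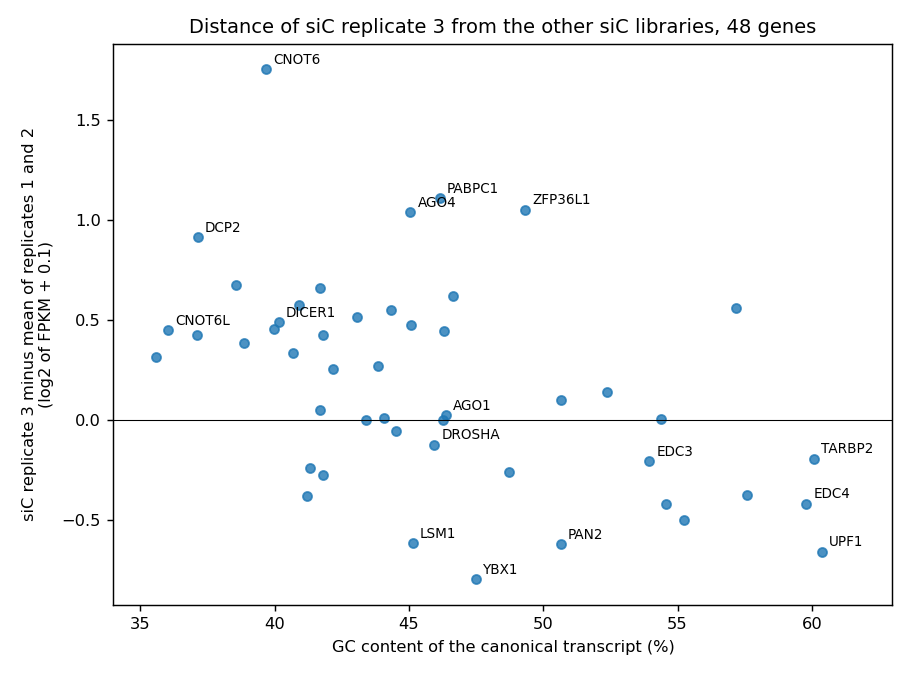
Distance of siC replicate 3 from the mean of siC replicates 1 and 2, on the log2 scale of FPKM + 0.1, against the GC content of the canonical transcript for the 48 members tested. Each point is a gene, and 16 are named. CNOT6, PABPC1, ZFP36L1 and AGO4 lie highest, and members above 54% GC lie mostly below the line at 0.

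Among the genes of microRNA biogenesis no member passed the threshold in either direction, and the median log2 change was 0.039 (-0.10 without siC replicate 3). DROSHA (ENSG00000113360, GRCh38 chromosome 5, 31400494 to 31532196, minus strand), the nuclear RNase III that cleaves primary microRNAs, was at 8.47, 8.5 and 7.79 FPKM in siC and 7.77, 7.3, 7.58 and 7.53 FPKM in siImp1. All siImp1 values lay below all siC values, by a small margin at siC replicate 3. The means were 8.25 ± 0.401 and 7.54 ± 0.195 FPKM, with a log2 change of -0.13 (95% interval -0.27 to 0.017, limma adjusted p = 0.246), and -0.17 without siC replicate 3 (adjusted p = 0.0478). DICER1 (ENSG00000100697, chromosome 14, 95086228 to 95158010, minus strand), the cytoplasmic RNase III that cuts hairpin precursors, was at 6.36, 6.71 and 9.22 FPKM in siC and 7.75, 9.05, 7.73 and 7.58 FPKM in siImp1. Here siC replicate 3 and siImp1 replicate 2 were both high, and the groups overlapped through siC replicate 3. The log2 change of DICER1 was 0.13 (95% interval -0.20 to 0.45, limma adjusted p = 0.639), and 0.29 without that library (adjusted p = 0.0519).

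XPO5, which exports precursor microRNAs from the nucleus, had the highest mean of the biogenesis genes. It was at 20.5, 20.5 and 17.1 FPKM in siC and 19.2, 17.7, 18.8 and 19.6 FPKM in siImp1, with siC replicate 3 lowest. A log2 change of -0.037 was found (limma adjusted p = 0.83), and -0.12 without siC replicate 3. DGCR8, the RNA-binding partner of DROSHA, was at 11 ± 1.76 FPKM in siC and 11.2 ± 0.191 FPKM in siImp1 (log2 change 0.039, 95% interval -0.22 to 0.30), and the log2 change was -0.10 without siC replicate 3. TARBP2, a double-stranded RNA-binding partner of DICER1, was at 13.4 ± 1.05 and 13.7 ± 0.798 FPKM (log2 change 0.04, 95% interval -0.15 to 0.23), and -0.025 without that library. DGCR8 and XPO5 overlap TRMT2A and POLR1C, respectively, on the other strand, by 3 and 348 exonic bases.

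The Argonaute and GW182 genes held the lowest adjusted p-values among members that missed the threshold. AGO1 and AGO2 were lower in each siImp1 library, whereas TNRC6A was higher in each. AGO1 (ENSG00000092847, chromosome 1, 35869808 to 35930532 on the plus strand, 19 exons), the most abundant Argonaute transcript of these cells, was at 21.8, 22.2 and 22.3 FPKM in siC and 17.7, 18.3, 18.5 and 18.4 FPKM in siImp1. Its values were tight in both groups and well apart. The means were 22.1 ± 0.289 and 18.2 ± 0.393 FPKM, or 82.5% of siC, with a log2 change of -0.28 (SE 0.0505, limma adjusted p = 0.016). Without siC replicate 3 the log2 change was -0.27, and AGO1 passed the threshold (adjusted p = 0.0057).

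AGO2 (ENSG00000123908, chromosome 8, 140520156 to 140635633, minus strand), the Argonaute that can cleave its target, was at 8.46, 8.76 and 13.3 FPKM in siC and 7.13, 7.77, 7.3 and 7.35 FPKM in siImp1. The highest value by far was that of siC replicate 3. On the log2 scale the difference was -0.43 (95% interval -0.79 to -0.058, limma adjusted p = 0.139), and -0.22 without that library (adjusted p = 0.0313). AGO3 was at 2.42 ± 0.426 FPKM in siC and 2.77 ± 0.231 FPKM in siImp1. Its log2 change was 0.20, or 0.33 when siC replicate 3 was left out. For AGO4, at 2.09 ± 0.988 and 1.91 ± 0.33 FPKM, the log2 change was -0.047, and 0.30 without siC replicate 3, where AGO4 was at 3.23 FPKM.

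Summed over AGO1 to AGO4, Argonaute transcripts came to 33.9, 34.7 and 41.7 FPKM in siC and 29.3, 31.5, 30.2 and 30.1 FPKM in siImp1. AGO1 took 64.3%, 63.8% and 53.5% of the sum in siC and from 58.0% to 61.3% in siImp1. AGO3 took from 6.03% to 6.90% in siC and from 8.42% to 9.78% in siImp1, without overlap. The sum and the shares were described and not tested.

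TNRC6A, TNRC6B and TNRC6C encode the GW182 proteins, the scaffolds between Argonaute and the deadenylases. TNRC6A ranged from 6.13 to 6.36 FPKM in siC and from 7.05 to 8.07 FPKM in siImp1. The means were 6.25 ± 0.116 and 7.42 ± 0.456 FPKM, with a log2 change of 0.24 (95% interval 0.082 to 0.40, limma adjusted p = 0.0667), and 0.24 without siC replicate 3 (adjusted p = 0.0474). TNRC6B was at 8.24 ± 0.224 and 8.61 ± 0.103 FPKM (log2 change 0.063, 95% interval -0.063 to 0.19, and 0.044 without siC replicate 3), its groups separated only beyond the third digit. TNRC6C, at 1.61 ± 0.12 and 1.81 ± 0.145 FPKM, had a log2 change of 0.16 (95% interval -0.13 to 0.45, and 0.21 without siC replicate 3), and it overlaps TMC6 on the other strand by 1426 exonic bases.

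MicroRNA machinery can itself be a target of microRNAs, so the 3'UTRs of the members were searched for the letters that pair with the seed (bases 2 to 8) of hsa-let-7a-5p and hsa-miR-122-5p, from the let-7 family and the liver-specific miR-122 that the study followed in these cells. The mature sequences, from RefSeq (GRCh38.p14), are shown with the seed in capitals.
hsa-let-7a-5p: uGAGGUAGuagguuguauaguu
hsa-miR-122-5p: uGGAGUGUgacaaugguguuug
The letters searched were CTACCTC and ACACTCC, on the transcript strand of the canonical GENCODE v44 transcript, and a match to one can share at most 1 base with a match to the other. CTACCTC was present in 5 of 49 members (10.2%), namely TARBP2, AGO1, AGO2 (2 matches), AGO3 and ELAVL1, beside 11.2% of 10609 tested genes with a coding transcript. ACACTCC was present in 9 of 49 members (18.4%), namely DICER1, AGO1, AGO2, TNRC6A, TNRC6B, DDX6, SMG1, YBX1 and HNRNPU, beside 8.38%. These shares of all genes are not matched for length, and many 3'UTRs of the members are long. Among 146 3'UTRs of a length within 20% of that of AGO1 (10925 bases), 51.4% held CTACCTC and 37.7% held ACACTCC. For the 9 members with ACACTCC, the share at like length ran from 8.18% (YBX1) to 44.1% (TNRC6B). For the 5 with CTACCTC it ran from 2.6% (TARBP2) to 52.4% (AGO2). An excess or lack of either string in the members was not tested. For AGO1 (both strings), AGO3, DICER1 and TNRC6A, stretches of 30 bases are shown with the match in capitals, in GRCh38 coordinates.
AGO1, let-7 letters (chr1:35920680-35920709, plus strand): tccttattcctcCTACCTCccgccccgccc
AGO1, miR-122 letters (chr1:35921896-35921925, plus strand): agagtgatgctaACACTCCatctgccctgt
AGO3, let-7 letters (chr1:36069076-36069105, plus strand): acctgtcctcacCTACCTCactaaattgtt
DICER1, miR-122 letters (chr14:95087276-95087305, minus strand): gaatgacctctaACACTCCtgtaattgtct
TNRC6A, miR-122 letters (chr16:24824001-24824030, plus strand): tctactctatttACACTCCcaaatagcgcc
A match is a description of letters and not of binding. Members with CTACCTC had log2 changes on either side of 0, from -0.43 for AGO2 to 0.20 for AGO3. So did members with ACACTCC, from -0.43 for AGO2 to 0.24 for TNRC6A. EDC3 held neither string in its 3'UTR of 2054 bases, and of 1479 3'UTRs of like length 13.6% held CTACCTC and 8.65% held ACACTCC.

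**Figure D4:**
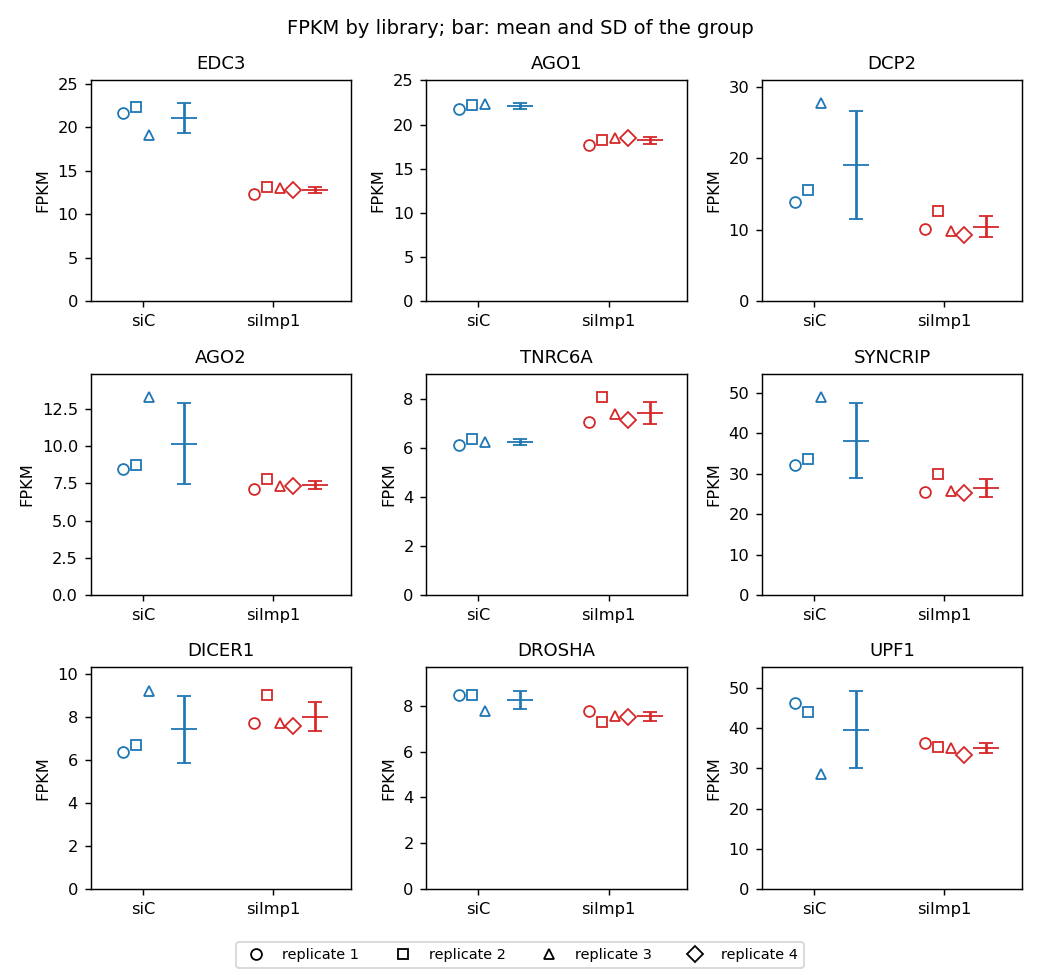
FPKM of 9 members in each siC library (blue) and siImp1 library (red), with the symbol giving the replicate number and the bar beside them the mean and SD of the group (n = 3 and n = 4). EDC3 and AGO1 separate the groups with little spread, whereas siC replicate 3 lies high for DCP2, AGO2, SYNCRIP and DICER1 and low for UPF1.

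For the deadenylation genes no member passed the threshold, and the median log2 change was -0.074 (0.039 without siC replicate 3). CNOT1, the scaffold of the CCR4-NOT complex, had the highest mean. It was at 31.7, 33.5 and 45.4 FPKM in siC and 30.5, 35, 28.1 and 28.6 FPKM in siImp1, with the highest value in siC replicate 3 and overlap of the groups. This gave a log2 change of -0.26 (95% interval -0.59 to 0.077, limma adjusted p = 0.312), and -0.097 without that library. CNOT6L, a deadenylase subunit of the same complex, had the largest difference of the tested members of this role. Its values were 4.7, 5.33 and 6.88 FPKM in siC and 4.61, 4.87, 4.36 and 4.55 FPKM in siImp1, again highest in siC replicate 3. The log2 change was -0.27 (95% interval -0.58 to 0.031, limma adjusted p = 0.236), and -0.12 without that library.

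CNOT6, the paralog of CNOT6L, was the least certain member. It was at 13.4 ± 10.3 FPKM in siC, where replicate 3 held 25.3 FPKM, and at 11.2 ± 3.74 FPKM in siImp1, with a log2 change of -0.055 that became 0.53 without siC replicate 3 (95% interval -0.14 to 1.20). The other catalytic subunits, CNOT7 and CNOT8, were at 18.3 ± 2.44 and 19.2 ± 0.479 FPKM in siC and at 17.4 ± 0.457 and 19.9 ± 0.997 FPKM in siImp1. Their log2 changes were -0.066 (95% interval -0.28 to 0.15) and 0.052 (95% interval -0.092 to 0.20). When siC replicate 3 was left out, that of CNOT7 turned to 0.04 and that of CNOT8 was 0.069. CNOT10, which binds the amino-terminal part of CNOT1, was at 16.6 ± 0.23 and 15.7 ± 0.442 FPKM (log2 change -0.082, limma adjusted p = 0.389, and -0.079 without siC replicate 3) with no overlap between groups. For the scaffold subunit CNOT2 the log2 change was -0.18 (0.038 without siC replicate 3), with means of 5.94 ± 1.7 and 5.14 ± 0.78 FPKM. CNOT4, a ubiquitin ligase, was at 3.98 ± 0.949 and 3.93 ± 0.571 FPKM, with a 95% interval of -0.41 to 0.41 for its log2 change of -0.0012, and 0.18 without that library.

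PAN2 and PAN3 form the other deadenylase, with PAN2 as the nuclease and PAN3 as its adaptor. In siC and siImp1, PAN2 was at 4.99 ± 1.17 and 4.31 ± 0.333 FPKM, a log2 change of -0.18 (-0.39 without siC replicate 3, limma adjusted p = 0.0228). PAN3 was at 5.92 ± 1.09 and 6.55 ± 0.241 FPKM, a log2 change of 0.16 (0.30 without siC replicate 3, adjusted p = 0.0171). Thus the values without that library were of opposite sign for the nuclease and the adaptor, and neither passed the threshold.

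CNOT3 (ENSG00000088038, chromosome 19, 54137749 to 54155681), a scaffold subunit that pairs with CNOT2, was the member below the filter. It was at 0.515, 0.458 and 0.914 FPKM in siC and 0.504, 0.695, 0.543 and 0.462 FPKM in siImp1, with 40 to 98 reads per library, and the groups overlapped. It was not tested, and with no filter on low values it did not pass the threshold either. Of the 56 stretches of 50 bases of its canonical transcript, 38 (67.9%) were also found, letter for letter, in alternative haplotype sequences of GRCh38, and no other member had more than 2.54%. Whether the alignment used these sequences is not given in the sources used here, and a loss of reads to them was not tested, so that the FPKM of CNOT3 may be below its true level and is not compared with those of the other members.

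Among the members, decapping and 5'-3' decay was, over all 7 libraries, the role with the lowest median log2 change, -0.19. Without siC replicate 3 its median was -0.15, and that of the partners of IGF2BP1 was lower, at -0.17. Over all libraries 4 of 8 members were lower without overlap between groups, beside 15.1% of all genes tested. Without siC replicate 3, 5 were lower and 1 was higher without overlap, beside 29.3% and 20.5% of all genes. The low median was not shared by 13 further genes of this role, from the list described below. Their median was 0.043 over all libraries, with 2 lower and 2 higher without overlap and 0 past the threshold. Leaving out siC replicate 3, their median was -0.075, with 6 lower and 2 higher without overlap. EDC3 (ENSG00000179151, chromosome 15, 74630558 to 74696292 on the minus strand, 7 exons), which binds DCP2 and DDX6 and promotes decapping, fell to 60.9% of siC. It was at 21.6, 22.3 and 19 FPKM in siC and 12.3, 13.1, 13 and 12.7 FPKM in siImp1, so that every siImp1 value lay clearly below every siC value. The means were 21 ± 1.72 FPKM (SD, n = 3) and 12.8 ± 0.374 FPKM (SD, n = 4). On the log2 scale the difference was -0.71 (SE 0.0714, 95% interval -0.88 to -0.54, limma adjusted p = 0.00184), with 843 to 3647 reads per library. Without siC replicate 3 it was -0.78 (adjusted p = 0.00041), and on recovered reads voom gave -0.71 (adjusted p = 0.000712).

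The call of EDC3 depended on the library left out. It passed without siC replicate 3 and without siImp1 replicate 2 (limma adjusted p = 0.00902), whereas leaving out siC replicate 1 (0.0124) or 2 (0.0129), or siImp1 replicate 1 (0.0124), 3 (0.0111) or 4 (0.0120), put the adjusted p above 0.01, with log2 changes from -0.72 to -0.66 in these 5 fits. EDC3 overlaps the kinase gene CLK3 on the other strand by 701 exonic bases, and the strand setting of the count was not given in the sources used here. CNOT1, CNOT3, CNOT8, DCP2 and LSM1 also overlap a coding gene on the other strand (SETD6, LENG1, FAXDC2, MCC and BAG4, respectively). CLK3 was at 2.49 ± 0.414 FPKM in siC and 2.78 ± 0.126 FPKM in siImp1 (log2 change 0.16, limma adjusted p = 0.483).

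DCP2, the decapping enzyme, had the largest difference of all members tested, and its spread was wide. It was at 13.8, 15.5 and 27.7 FPKM in siC and 10.1, 12.6, 9.78 and 9.24 FPKM in siImp1, without overlap but with siC replicate 3 far above the other siC libraries. This gave a log2 change of -0.80 (SE 0.242, limma adjusted p = 0.0827), and -0.50 without that library (adjusted p = 0.0379), short of the threshold in both fits. DDX6, a helicase that links translational repression to decapping, had the highest mean of this role. Its values were 22.8, 24.5 and 32.5 FPKM in siC and 21.7, 22.4, 20.5 and 21 FPKM in siImp1, the lowest siC and the highest siImp1 library being close. The log2 change was -0.30 (95% interval -0.58 to -0.0093, limma adjusted p = 0.18), and -0.14 without siC replicate 3.

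Among the other decapping factors, EDC4, the scaffold of the decapping complex, was at 17.2 ± 2.76 FPKM in siC and 15 ± 0.77 FPKM in siImp1. Its log2 change of -0.18 (limma adjusted p = 0.384) became -0.32 without siC replicate 3 (adjusted p = 0.0117). The activators of DCP2, DCP1A and DCP1B, were at 6.1 ± 0.697 and 3.02 ± 0.132 FPKM in siC and at 5.96 ± 0.157 and 2.63 ± 0.164 FPKM in siImp1, with log2 changes of -0.029 (95% interval -0.23 to 0.17) and -0.19 (95% interval -0.40 to 0.012). Leaving out siC replicate 3, that of DCP1A turned to 0.062, and that of DCP1B was -0.16. XRN1, the exonuclease that degrades the decapped mRNA, was at 5.49 ± 1.0 and 5.84 ± 0.375 FPKM (log2 change 0.10, 95% interval -0.19 to 0.39), and 0.24 without that library. For LSM1, of the ring that binds shortened tails, the means were 19.2 ± 4.37 and 21.3 ± 1.1 FPKM, and the log2 change of 0.17 became -0.029 without siC replicate 3, where LSM1 was at 14.1 FPKM.

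In nonsense-mediated decay, the pathway that removes mRNAs with a premature stop codon, no member passed the threshold with all libraries, and the median log2 change was 0.070 (0.055 without siC replicate 3). SMG5, an adaptor that binds phosphorylated UPF1, had both the highest mean and the largest difference of this role. It was at 81.4, 80.4 and 62.4 FPKM in siC and 87.5, 81.3, 92.2 and 94 FPKM in siImp1, the groups touching at siC replicate 1 and siImp1 replicate 2. On the log2 scale the difference was 0.26 (95% interval -0.0053 to 0.52, limma adjusted p = 0.201), and 0.13 without siC replicate 3. UPF1 (ENSG00000005007, chromosome 19, 18831959 to 18868230, plus strand), the central helicase, turned on that library. It ranged from 28.6 to 46.3 FPKM in siC, with the lowest value in replicate 3, and from 33.4 to 36.4 FPKM in siImp1. The log2 change of UPF1 was -0.14 (limma adjusted p = 0.646), and -0.36 without siC replicate 3, where it passed the threshold (adjusted p = 0.00398). Its transcript had the highest GC content of the members tested, 60.4%, and siC replicate 3 lay -0.66 from the other siC libraries on the log2 scale.

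UPF2, which bridges UPF1 to the exon junction complex, was at 10.2 ± 1.49 FPKM in siC and 11.9 ± 0.288 FPKM in siImp1 without overlap, with a log2 change of 0.24 (95% interval -0.0045 to 0.48, limma adjusted p = 0.20), and 0.11 without siC replicate 3. Its partner UPF3B was at 4.82 ± 0.505 and 5.11 ± 0.816 FPKM (log2 change 0.076, 95% interval -0.26 to 0.41), and the log2 change turned to -0.0033 without siC replicate 3. The kinase SMG1 was at 9.53 ± 2.09 and 9.8 ± 0.915 FPKM, a log2 change of 0.058 (0.23 without that library). SMG6, the endonuclease of the pathway, was at 3.66 ± 0.703 and 3.78 ± 0.126 FPKM, a log2 change of 0.064 (-0.10 without that library), and it overlaps HIC1 on the other strand by 2419 exonic bases.

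The stability factors and adaptors had a median log2 change of -0.11 that became 0.11 without siC replicate 3, and 0 of 8 passed the threshold in either fit. ELAVL1, also called HuR, binds AU-rich elements and stabilizes mRNAs. It was at 14.9, 15.2 and 20.5 FPKM in siC and 16.5, 17.2, 14.8 and 14.7 FPKM in siImp1, and the groups overlapped, with siC replicate 3 highest. This gave a log2 change of -0.08 (95% interval -0.38 to 0.22, limma adjusted p = 0.758), and 0.069 without that library. PABPC1, the cytoplasmic poly(A)-binding protein, had the highest mean of this role. Its values were 50.2, 53.8 and 112 FPKM in siC and 67, 101, 58.9 and 60.3 FPKM in siImp1, with siC replicate 3 and siImp1 replicate 2 far above the rest. The log2 change was 0.057 (95% interval -0.70 to 0.81), and 0.43 without siC replicate 3 (95% interval -0.10 to 0.96), so that a change of this transcript could not be shown or bounded closely.

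ZFP36, ZFP36L1 and ZFP36L2 bind AU-rich elements and recruit deadenylases. ZFP36L1 had the largest difference of this role. It was at 5.46, 5.77 and 11.7 FPKM in siC and 5.86, 7.55, 5.7 and 6.09 FPKM in siImp1, and the difference lay in siC replicate 3. On the log2 scale the difference was -0.19 (limma adjusted p = 0.713), and 0.16 without that library. For ZFP36 the means were 2.17 ± 0.567 and 2.3 ± 0.266 FPKM (log2 change 0.10, and 0.29 without siC replicate 3), and for ZFP36L2 29.6 ± 0.695 and 27 ± 4.64 FPKM (log2 change -0.15, 95% interval -0.47 to 0.17, and -0.15 without that library). PUM2, which binds Pumilio elements in the 3'UTR, was at 37.2 ± 5.26 and 33.3 ± 1.58 FPKM (log2 change -0.15, and -0.039 without siC replicate 3). BTG1 and TOB1, which recruit the CNOT7 and CNOT8 deadenylases, were at 11.5 ± 3.32 and 14.3 ± 1.53 FPKM in siC and at 11.7 ± 2.0 and 12.6 ± 0.304 FPKM in siImp1. Their log2 changes were 0.05 (0.27 without siC replicate 3) and -0.18 (-0.095), respectively, and the groups of TOB1 did not overlap.

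SYNCRIP, YBX1, HNRNPU and DHX9 are RNA-binding proteins found in complexes with IGF2BP1, and 0 of 4 passed the threshold. SYNCRIP had the largest difference of this role. It was at 32.1, 33.5 and 48.9 FPKM in siC and 25.3, 29.8, 25.7 and 25.2 FPKM in siImp1, all siImp1 values being below all siC values. This gave a log2 change of -0.50 (SE 0.154, limma adjusted p = 0.0872), and -0.31 without siC replicate 3 (adjusted p = 0.0342). It shares 2832 exonic bases with an unnamed coding gene on its own strand (ENSG00000271793), so that its count is uncertain to that extent. YBX1, the most abundant member, was at 579, 552 and 326 FPKM in siC and 552, 485, 546 and 556 FPKM in siImp1, with siC replicate 3 far below the rest. The log2 change was 0.18 (95% interval -0.29 to 0.66), and -0.082 without that library (95% interval -0.25 to 0.083).

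The helicase DHX9 had tight values, at 89.9 ± 1.4 FPKM in siC and 80.5 ± 1.87 FPKM in siImp1, or 89.6% of siC. All siImp1 values lay below all siC values, the log2 change being -0.16 (limma adjusted p = 0.11), the same without siC replicate 3 (adjusted p = 0.028). HNRNPU, a nuclear scaffold protein, was at 40.6 ± 4.32 and 38 ± 0.978 FPKM. Its log2 change of -0.091 (limma adjusted p = 0.556) became -0.18 without that library (adjusted p = 0.0191). It overlaps COX20 on the other strand by 3502 exonic bases.

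Beside the members, 97 further genes of the same routes and of the RNA exosome were examined, of which 96 passed the filter. Of these, EXOSC6 was lower and CNOT11 was higher at the threshold (2.08%), beside 3.93% of all genes tested, and the median log2 change was -0.017. EXOSC6, a subunit of the exosome that degrades RNA from its 3' end, was at 14.6, 15.1 and 15.5 FPKM in siC and 10.8, 11, 10.5 and 10.2 FPKM in siImp1. Its log2 change was -0.50 (SE 0.0576, limma adjusted p = 0.00293). CNOT11, the partner of CNOT10 in the CCR4-NOT complex, was at 89.7, 91.2 and 76.7 FPKM in siC and 127, 118, 128 and 125 FPKM in siImp1. The rise was 0.54 on the log2 scale (SE 0.0802, limma adjusted p = 0.00785), whereas CNOT10 was at -0.082 on the same scale. Without siC replicate 3, 12 of these genes were lower and 3 higher, beside 6.67% and 3.6% of all genes tested. EXOSC6 was among the 12 and CNOT11 among the 3, and with any of the other libraries left out 0 of the 97 passed.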

How the data were processed

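Sample titles gave the groups and replicate numbers. Per the labels, the libraries were directional and made from RNA without rRNA, and the submitters' processing notes name cutadapt 1.14, HISAT2 2.1.0, SAMtools 1.5, featureCounts 1.5.3 and edgeR 3.18.1, on hg38 (GRCh38). The authors deposited FPKM values per gene, scaled to TMM library sizes. Columns of the authors' own fold changes, p-values and FDR were not used. The 14839 genes whose mean reached 1 FPKM were tested by limma 3.58.1 (R 4.3.3) on log2(FPKM + 0.1) with a mean-variance trend, two-sided, without covariates, with Benjamini-Hochberg adjustment over all genes tested and a threshold of 0.01. Such a scale understates changes of low genes. Whole reads were recovered from the product of FPKM and gene length for voom. Transcript GC content, 3'UTRs and overlaps came from GENCODE v44. The fit was run on simulated reads with planted changes larger than that of any member, and with no outlying library or GC trend. That run therefore says nothing of smaller changes or of siC replicate 3. The members and lists were chosen with earlier results of these data known. All members are named. Values of every library are given for members past the threshold, for DICER1, DROSHA, AGO2 and ELAVL1, and within a role for the largest absolute log2 change and the highest mean FPKM, and of the 97 other genes those past the threshold are named. Values of a library outside this rule, and the microRNA letters, were chosen after values were seen. The alternatives are given at the end.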

Additional observations from a re-analysis of the deposited data

Results flagged for a closer look

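In siImp1, the values of 50 genes (the 49 members and IGF2BP1) were examined for a library far from the other 3, by the gap to the nearest library as a share of the range, against Dixon's 95% critical value for 4 samples. Chance alone marks about 1 in 20 groups, or 2.5 of 50, and 3 were over the critical value. In each of the 3, siImp1 replicate 2 was the library apart. For DICER1 the share was 0.884, with siImp1 replicate 2 highest at 9.05 FPKM and the nearest library at 7.75 FPKM. For SYNCRIP it was 0.887, with 29.8 FPKM against 25.7 FPKM. For YBX1 it was 0.856, with siImp1 replicate 2 lowest at 485 FPKM and the nearest library at 546 FPKM. In siC, replicate 3 deviated from the other siC libraries to the same side for these genes (0.49, 0.57 and -0.79 on the log2 scale, respectively). With 3 libraries, siC is too small for this rule. Across the 48 members tested, the deviations of siC replicate 3 and siImp1 replicate 2 went together (Pearson's r 0.785 across genes, beside 0.201 across all genes tested), the points sharing these libraries. The cause was not tested.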

How the results depend on the processing

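Over 18 alternatives (a pseudocount of 1, no filter, median centring, a filter at a mean of 5 FPKM, quantile normalization, no trend, array weights, voom, GC trend removed, a replicate block without and with GC removal, and each library left out in turn), 29 of 48 members kept the sign of their log2 change and 19 did not. These 19 missed the threshold in the main test and in every alternative. Array weights, which weigh libraries by their spread, called 8 members lower (AGO1, DCP2, DHX9, EDC3, EDC4, HNRNPU, SYNCRIP and UPF1) and 1 higher (PAN3), or 18.8% of the members. Among all genes tested they called 11.6% lower, 6.89% higher and 18.5% in either direction. An adjusted threshold of 0.05 called 2 members lower (EDC3 and AGO1) and 0 higher, beside 6.81% lower, 4.74% higher and 11.5% in either direction among all genes. Of the 97 others it called 7 lower and 4 higher. Each other setting that kept all 7 libraries called EDC3 lower and no further member. Leaving out 1 library, from 0 to 3 members were lower and 0 higher, with from 0 to 12 of the 97 others lower and from 0 to 3 higher. The highest counts were those without siC replicate 3, where 6.67% of all genes tested were lower and 3.6% higher. AGO1 and UPF1 passed among the fits that left out a library only without siC replicate 3. The log2 change of IGF2BP1 ran from -2.40 to -2.35 in these fits and passed in 7 of 7.

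Same-numbered libraries did not deviate together over 14839 genes (Pearson's r -0.026, -0.12 and -0.11 for replicates 1 to 3), and of 6 samples 0 correlated best with its own number. With the replicate number as a block, which leaves siImp1 replicate 4 out and takes degrees of freedom, 0 members passed in either direction, without and with the GC trend removed, and neither did IGF2BP1 (log2 change -2.36 and -2.33). The block moved the log2 change of AGO4 to 0.012, CNOT4 to 0.038 and CNOT6 to 0.040, and with the GC trend removed to 0.032, 0.053 and 0.046, respectively.

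Other sign changes were as follows. With array weights the log2 change was -0.088 for DGCR8, 0.23 for AGO4, 0.13 for CNOT4, 0.37 for CNOT6, 0.023 for CNOT7, 0.056 for DCP1A, -0.034 for LSM1, -0.036 for UPF3B, -0.076 for SMG6, 0.054 for ELAVL1, 0.077 for ZFP36L1 and -0.033 for YBX1. With quantile normalization it was 0.0020 for XPO5, with voom 0.043 for AGO4 and 0.036 for CNOT4, with median centring 0.028 for CNOT4 and 0.00066 for DCP1A, and with the GC trend removed 0.021 for CNOT4. Over the fits that left out 1 library, the log2 change ran across 0 for DGCR8 -0.10 to 0.11, XPO5 -0.12 to 0.0066, TARBP2 -0.025 to 0.085, AGO4 -0.24 to 0.30, CNOT2 -0.32 to 0.038, CNOT4 -0.11 to 0.18, CNOT6 -0.44 to 0.53, CNOT7 -0.13 to 0.04, DCP1A -0.084 to 0.062, LSM1 -0.029 to 0.29, UPF3B -0.0062 to 0.18, SMG1 -0.043 to 0.23, SMG6 -0.10 to 0.15, PABPC1 -0.15 to 0.43, ELAVL1 -0.16 to 0.069, ZFP36 -0.069 to 0.29, ZFP36L1 -0.39 to 0.16, BTG1 -0.068 to 0.27, YBX1 -0.082 to 0.33. The cause of these changes was not tested. Intervals of log2 changes rest on 3 and 4 libraries, and the thinnest tested member, ZFP36, on 51 to 107 reads.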

Other observations

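CNOT3 was low in every library, and the neighbouring genes on chromosome 19 were examined after this was seen. From 54102728 to 54194536 (GRCh38), NDUFA3 lay from 0.215 to 0.623 FPKM, TFPT from 0.0890 to 0.529 FPKM, PRPF31 from 1.64 to 2.19 FPKM, LENG1 from 0.188 to 0.607 FPKM, MBOAT7 from 0.453 to 1.1 FPKM and TSEN34 from 1.96 to 2.88 FPKM. RPS9, a ribosomal protein gene next to them, lay from 7.3 to 12 FPKM, beside a median of 119 FPKM over 79 other ribosomal protein genes. PRPF31 is a splicing factor and NDUFA3 a subunit of the respiratory chain, used by most cells. From 69.4% to 95.3% of the 50-base stretches of these 7 transcripts were also present in alternative haplotype sequences of GRCh38. A loss of reads to these sequences was not tested.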
